A study of Mus musculus with 16 samples.

Results

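The genes described here are 9 that store, move or release iron: Fth1 and Ftl1 (the heavy and light chains of ferritin), Trf, Tfrc, Slc11a2 and Slc11a1 (iron uptake and intracellular transport), Slc40a1 and Cp (iron export) and Hmox1 (heme breakdown). They were chosen by name from the 55487 genes of the deposited table, and all 9 passed the filter on low counts that left 18565 genes for testing. The tissue was the right hippocampus of PBS-perfused female mice, whose age is 40 weeks in one label and 9.5 months in another. The groups were TCKO (PS19 tau transgenic mice lacking Ch25h), T (PS19 mice with Ch25h), CKO (mice lacking Ch25h, without the transgene) and WT (neither change), with 4 libraries in each of the 4 groups. PS19 mice overexpress 1N4R human tau with the P301S substitution from the prion protein (PrP) promoter, and Ch25h encodes cholesterol 25-hydroxylase. Nothing in the labels says that replicates of a group are different animals, and the p-values below cover only the variation among the libraries.

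Brain cells take up iron bound to transferrin through the transferrin receptor, use it for respiration and myelin lipid synthesis, keep the surplus inside ferritin shells and release it through ferroportin. Oligodendrocytes are rich in transferrin and ferritin, and microglia take up iron, store it in ferritin and break down heme from engulfed material. Cells match these proteins to their iron supply largely after transcription: iron regulatory proteins bind a short RNA hairpin, the iron-responsive element, which blocks translation when it lies in the 5′ UTR of a message and protects the message from decay when it lies in the 3′ UTR. Message levels of ferritin therefore do not report ferritin protein.

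The hairpins are shown because they are the sequences through which this control reaches the messages of some of the 9 genes. They were searched on the coding strand of annotated UTRs (GENCODE M21, GRCm38) as a C bulge, 5 bases, the loop CAGTGN and 5 bases pairing with the first 5, with G to T pairs allowed. Each line gives 27 bases from 5′ to 3′, with the 6 loop bases in capitals.
Fth1 5′ UTR, chromosome 19: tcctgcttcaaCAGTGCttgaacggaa
Ftl1 5′ UTR, chromosome 7: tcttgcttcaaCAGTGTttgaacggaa
Slc40a1 5′ UTR, chromosome 1: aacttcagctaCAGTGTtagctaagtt
Tfrc 3′ UTR, chromosome 16: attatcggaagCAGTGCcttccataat
Tfrc 3′ UTR, chromosome 16: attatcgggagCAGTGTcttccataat
Tfrc 3′ UTR, chromosome 16: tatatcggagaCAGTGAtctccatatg
Tfrc 3′ UTR, chromosome 16: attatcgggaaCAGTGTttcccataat

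This pattern was found in 4 of the 9 genes, against 175 of 21484 genes with a coding transcript and an annotated UTR (0.81%). The ferritin hairpins share 25 of 27 bases, and 4 stretches of the Tfrc 3′ UTR matched the pattern. A hairpin that departs from the pattern would not be counted. A match is a description of the letters, and the absence of one in the other 5 genes says only that these letters were not in the UTRs searched.

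Library totals ran from 15.06 to 34.35 M estimated reads. Ch25h was read 0, 1, 1 and 0 times in the TCKO libraries, 300, 149, 154 and 133 times in the T libraries, 2, 0, 0 and 1 times in the CKO libraries and 18, 25, 20 and 40 times in the WT libraries, so this gene matched the labels in all 16 libraries. Neuron markers summed to 3607 to 5256 CPM (counts per M reads, scaled by TMM factors) in T, below all WT libraries at 5442 to 6185 CPM. The sums were 4581 to 7019 CPM in TCKO and 6361 to 6766 CPM in CKO. Of the 6 neuron markers, 2 were lower and 0 higher in T than in WT. In TCKO against T, 1 was higher and 0 lower. The part of neuronal RNA in the values below was not tested. Choroid plexus markers were high in T replicate 4 (7674 CPM summed) and WT replicate 1 (7287 CPM), against 20.3 to 426 CPM in the other 14 libraries, so calls of named genes that are lost without those libraries are given both ways. Since the samples are bulk tissue, a change in the number of cells of a type and a change in RNA per cell cannot be told apart.

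Ferritin heavy chain was by far the most abundant message of the 9. On the length-scaled TPM scale Fth1 averaged 17173 TPM over the 16 libraries and ranked between 2 and 13 among all genes, with a median rank of 3. Ftl1 averaged 1502 TPM and Trf 1042 TPM. The other genes were much lower, with means of 15.5 TPM for Tfrc, 15.2 for Hmox1, 11.5 for Slc11a2, 10.7 for Slc40a1, 9.78 for Slc11a1 and 6.52 for Cp. Fth1 held first place among the 9 in every library and took between 0.546% (WT replicates 1 and 5) and 1.42% (T replicate 2) of all reads.

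**Figure D1:**
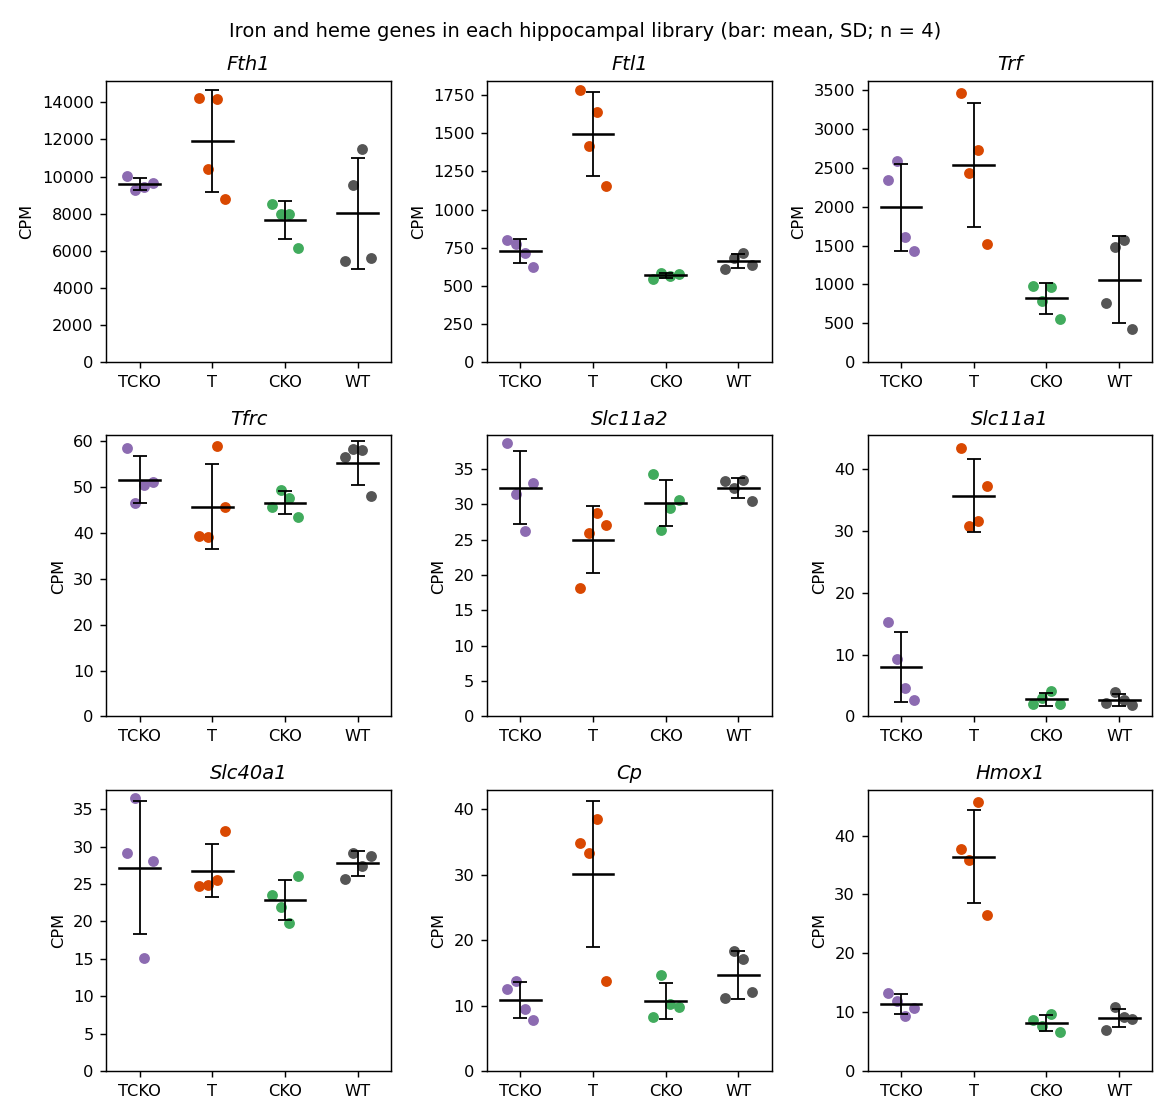
Level of each of the 9 genes in every library, with 1 panel per gene (vertical axes in CPM, each with its own range) and the groups TCKO, T, CKO and WT from left to right; points are libraries, bars are group means and error bars are the SD of 4 libraries. The T points of Ftl1, Slc11a1 and Hmox1 lie above the points of the other groups, while those of Slc40a1 and Tfrc overlap with WT.

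In T hippocampi with Ch25h intact, 5 of the 9 genes rose relative to WT: Hmox1, Slc11a1, Ftl1, Trf and Cp. None fell, and Fth1, Tfrc, Slc11a2 and Slc40a1 did not pass the test (edgeR's quasi-likelihood test with Benjamini-Hochberg adjustment over all genes, threshold 0.05). Over all genes tested 24.2% were called in this comparison, 13% higher and 11.2% lower. At an unadjusted p under 0.05, 6 of the 9 were higher and 2 lower, and DESeq2 called 6 higher and 0 lower. The libraries did not overlap for Ftl1, Slc11a1 and Hmox1 (higher) and Slc11a2 (lower), beside 13.3% of all genes higher and 11.8% lower without overlap. The median log2 fold change of the 9 was 1.04, beside -0.0133 over all genes.

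In TCKO hippocampi, 4 of those 5 genes were lower than in T: Ftl1, Slc11a1, Cp and Hmox1. None was higher, with 1 of 9 higher and 4 lower at an unadjusted p under 0.05, and DESeq2 called the same number, 4. Over all genes 12.9% were called in TCKO against T, 4.81% higher and 8.05% lower. All 4 were lower without overlap between the libraries, as were 9.65% of all genes, while 0 of the 9 and 5.14% of all genes were higher without overlap. For Cp the gap was very small: TCKO replicate 3 and T replicate 5 were both at 13.7 CPM after rounding. The median log2 fold change of the 9 was -0.35, beside 0.0223 over all genes. The comparisons of T with WT and of TCKO with T share the T libraries, so their opposite signs are not independent of each other.

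**Figure D2:**
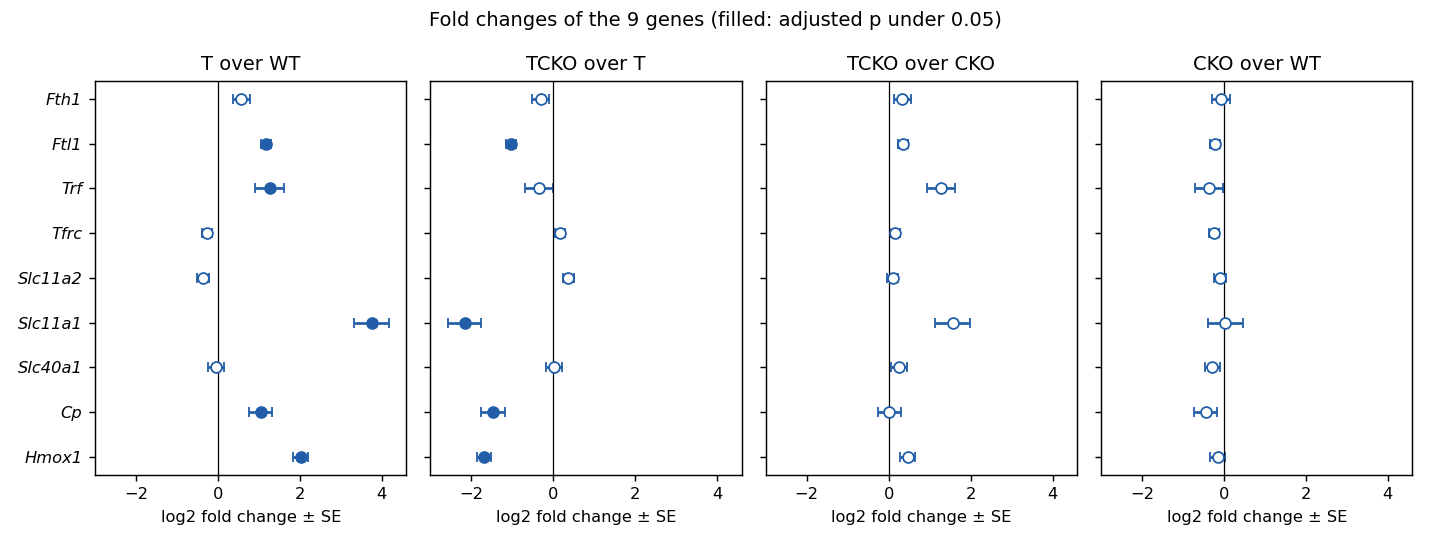
Log2 fold change ± SE of the 9 genes in each comparison (horizontal axes), with filled points for an adjusted p under 0.05 by edgeR. In T over WT 5 genes are filled to the right of 0, in TCKO over T 4 are filled to the left, and in CKO over WT and TCKO over CKO none is filled.

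Among the storage genes, the light chain passed the test in T and in TCKO against T, and the heavy chain in neither. Ftl1 (GRCm38 chromosome 7, 45457944 to 45459884, minus strand), which forms ferritin shells together with the heavy chain and favours mineral formation in them, was at 797, 777, 714 and 623 CPM in the TCKO libraries, 1781, 1415, 1639 and 1151 CPM in the T libraries, 547, 585, 563 and 574 CPM in the CKO libraries and 609, 685, 712 and 639 CPM in the WT libraries. Every T library was above every library of the other groups. Ftl1 was 1.18 ± 0.12 higher on the log2 scale in T than in WT (SE, adjusted p = 3.75e-06) and 1.04 lower in TCKO than in T (log2 fold change -1.04 ± 0.12, adjusted p = 3.79e-05). These calls held in every alternative run. Reads of the near-identical pseudogene Ftl1-ps1 cannot be separated from those of Ftl1 with certainty: it was listed at 73 ± 7.43 CPM in TCKO, 153 ± 31 in T, 61.1 ± 3.47 in CKO and 66.3 ± 3.99 in WT (SD, n = 4 each). Adding the reads of ferritin pseudogenes to Ftl1 and Fth1 changed no call of the 9 genes.

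Fth1 (chromosome 19, 9980598 to 9985098, plus strand), the chain that oxidises ferrous iron, was at 10036, 9276, 9456 and 9658 CPM in the TCKO libraries, 14256, 10420, 14204 and 8780 CPM in the T libraries, 8505, 7983, 7969 and 6169 CPM in the CKO libraries and 5446, 9552, 11466 and 5605 CPM in the WT libraries. The T and WT libraries overlapped, and T replicate 5 lay below WT replicates 2 and 4. The log2 fold change of T over WT was 0.57 ± 0.21 (adjusted p = 0.061), which did not pass. It passed with the replicate number as a block (0.59 ± 0.18, adjusted p = 0.0419), with DESeq2 (adjusted p = 0.0256), without a filter on low counts (adjusted p = 0.0429), without T replicate 5 (0.69, adjusted p = 0.0255) and without WT replicate 4 (0.79, adjusted p = 0.0109). It was smaller without T replicate 4 and WT replicate 1 together (0.35, adjusted p = 0.299). In TCKO over T it was -0.31 ± 0.21 (adjusted p = 0.366).

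Oligodendrocyte markers moved with Fth1 between the WT libraries. Their summed level was 13711 to 18186 CPM in TCKO, 10368 to 22636 CPM in T, 5426 to 9093 CPM in CKO and 3644 to 16051 CPM in WT. In WT replicates 1 and 5 the sums were 4955 and 3644 CPM, and these held the least Fth1, while replicates 2 and 4 had 13648 and 16051 CPM and the most Fth1. In T the marker sums and Fth1 had the same order, replicate 2, 4, 3 and 5 from high to low. In CKO replicate 1 was highest and replicate 5 lowest in both. In TCKO the orders differed: replicate 3 had the highest sum (18186 CPM) and the least Fth1 (9276 CPM). Of the 10 oligodendrocyte markers, 4 were higher and none lower in T than in WT. Their part in the Fth1 values was not tested.

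The ratio of Ftl1 to Fth1, taken on TPM so that lengths are accounted for, was 0.0758, 0.0791, 0.0715 and 0.0608 in the TCKO libraries, 0.12, 0.13, 0.109 and 0.124 in the T libraries, 0.0605, 0.0699, 0.067 and 0.0876 in the CKO libraries and 0.105, 0.0663, 0.0582 and 0.107 in the WT libraries. WT replicates 1 and 5, with the low oligodendrocyte sums, came close to the lowest T library. The geometric means were 0.0714 in TCKO, 0.121 in T, 0.0706 in CKO and 0.081 in WT. It was 0.57 higher in T than in WT and 0.75 lower in TCKO than in T on the log2 scale (difference -0.75), and in both cases the libraries did not overlap. The exact two-sided permutation p was 0.0286 in each, the smallest that 4 against 4 libraries allow over 70 splits, and 0.0857 after adjustment over the 12 ratio tests. In CKO against WT the difference was -0.2 (exact permutation p = 0.457), and in TCKO against CKO it was 0.02 (exact permutation p = 0.886).

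**Figure D3:**
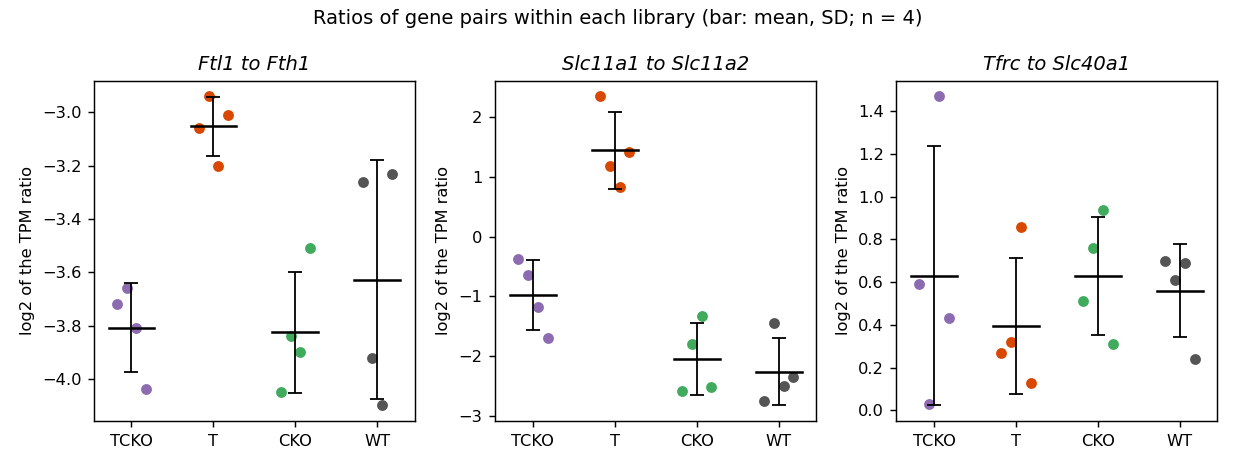
Log2 ratios of TPM in each library (vertical axes) for Ftl1 to Fth1, Slc11a1 to Slc11a2 and Tfrc to Slc40a1, with the groups TCKO, T, CKO and WT from left to right; points are libraries, bars are group means and error bars are the SD of 4 libraries. The T libraries lie above the others for the first and second ratio, and all groups overlap for the third.

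Among the uptake genes, Trf rose in T while the receptor Tfrc did not pass in any comparison. Trf (chromosome 9, 103204001 to 103230444, minus strand) encodes transferrin, the iron carrier of plasma that oligodendrocytes and choroid plexus also make. It was at 2342, 2586, 1606 and 1433 CPM in the TCKO libraries, 3467, 2428, 2733 and 1525 CPM in the T libraries, 979, 783, 965 and 557 CPM in the CKO libraries and 756, 1486, 1571 and 430 CPM in the WT libraries. T and WT overlapped by T replicate 5 and WT replicate 4 only. Trf was 1.26 ± 0.35 higher in T than in WT on the log2 scale (adjusted p = 0.0143). The call was lost without T replicate 2 (1.07, adjusted p = 0.0566) and without T replicate 4 and WT replicate 1 together (1.12, adjusted p = 0.0789). In TCKO over T the log2 fold change was -0.35 ± 0.34 (adjusted p = 0.546).

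The Trf levels of the WT libraries stood in the same order as their oligodendrocyte marker sums, replicate 4, 2, 1 and 5 from high to low. In the T libraries replicate 2 had the highest and replicate 5 the lowest value of both. The CKO libraries also shared an order, replicate 1, 4, 2 and 5 from high to low. In the TCKO libraries the orders differed. There, replicate 5 had the least Trf (1433 CPM) but a marker sum of 15113 CPM, above replicates 2 and 4 (14667 and 13711 CPM). T replicate 5, with 10368 CPM of markers, held 1525 CPM of Trf, close to WT replicates 2 and 4 with 1486 and 1571 CPM of Trf at higher marker sums. None of the 10 oligodendrocyte markers passed in TCKO against T, as Trf did not. The part of oligodendrocyte RNA in the Trf values was not tested.

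Tfrc (chromosome 16, 32608920 to 32632794, plus strand), the receptor for iron-loaded transferrin, was at 58.5, 46.4, 50.3 and 51.1 CPM in the TCKO libraries, 39.3, 39, 58.8 and 45.7 CPM in the T libraries, 45.7, 49.4, 47.5 and 43.5 CPM in the CKO libraries and 56.4, 58.2, 58 and 48 CPM in the WT libraries. T replicate 4 was above all WT libraries, and the other 3 T libraries were below them. The log2 fold change of T over WT was -0.27 ± 0.12 (adjusted p = 0.12). Without T replicate 4 it was -0.42 and passed (adjusted p = 0.0115), as it did without T replicate 4 and WT replicate 1 together (-0.38, adjusted p = 0.0455). In TCKO over T it was 0.17 ± 0.12 (adjusted p = 0.38).

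Slc11a2 (chromosome 15, 100387898 to 100425072, minus strand) encodes DMT1, which carries ferrous iron out of endosomes. It was at 38.7, 31.4, 26.2 and 33 CPM in the TCKO libraries, 18.1, 25.9, 28.8 and 27.1 CPM in the T libraries, 34.3, 26.3, 29.5 and 30.6 CPM in the CKO libraries and 33.3, 32.3, 33.4 and 30.4 CPM in the WT libraries. All T libraries were below all WT libraries, but the log2 fold change of -0.37 ± 0.14 did not pass (adjusted p = 0.0631). It passed without T replicate 4 (-0.45, adjusted p = 0.0446). In TCKO over T the log2 fold change was 0.37 ± 0.14 (adjusted p = 0.0933).

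Slc11a1 had the largest fold change of the 9 genes in T. It encodes NRAMP1, a metal transporter of the phagosome membrane of macrophages, and lies on chromosome 1, 74375195 to 74386062, plus strand. It was at 15.3, 9.25, 4.67 and 2.73 CPM in the TCKO libraries, 43.3, 30.7, 31.5 and 37.2 CPM in the T libraries, 1.93, 2.97, 4.16 and 1.95 CPM in the CKO libraries and 2.1, 3.94, 2.66 and 1.84 CPM in the WT libraries. Every T library lay far above the rest, and the TCKO libraries spread widely, with replicate 5 inside the WT range. The log2 fold change of T over WT was 3.75 ± 0.43, or 13.5-fold (adjusted p = 1.16e-05), and that of TCKO over T was -2.16 ± 0.4, a ratio of 0.223 (adjusted p = 0.00176).

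On the TPM scale Slc11a1 exceeded its widely expressed relative Slc11a2 in the 4 T libraries and in none of the others. The TPM ratio of Slc11a1 to Slc11a2 was 0.775, 0.638, 0.442 and 0.31 in the TCKO libraries, 5.05, 2.27, 1.76 and 2.67 in the T libraries, 0.167, 0.289, 0.4 and 0.175 in the CKO libraries and 0.149, 0.367, 0.178 and 0.198 in the WT libraries. The log2 difference was 3.69 for T against WT and -2.41 for TCKO against T, each with an exact permutation p of 0.0286 and an adjusted p of 0.0857. In TCKO against CKO it was 1.08 (exact permutation p = 0.0571, adjusted 0.137). In CKO against WT it was 0.2 (exact permutation p = 0.714).

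Of the export genes, Cp passed the test in T and in TCKO against T, and Slc40a1 in no comparison. Slc40a1 (chromosome 1, 45908068 to 45926523, minus strand) encodes ferroportin, the exporter of iron from cells. It was at 29.1, 36.5, 15.1 and 28.1 CPM in the TCKO libraries, 24.7, 24.8, 25.5 and 32.1 CPM in the T libraries, 23.5, 21.9, 19.8 and 26.1 CPM in the CKO libraries and 25.6, 29.2, 27.4 and 28.8 CPM in the WT libraries. The groups overlapped, and the TCKO libraries spread most. The log2 fold change was -0.05 ± 0.19 in T over WT (adjusted p = 0.885) and 0.02 ± 0.19 in TCKO over T (adjusted p = 0.955). The TPM ratio of Tfrc to Slc40a1, importer to exporter, had a geometric mean of 1.55 in TCKO, 1.31 in T, 1.55 in CKO and 1.48 in WT. Its log2 difference was -0.17 in T against WT (exact permutation p = 0.457) and 0.24 in TCKO against T (exact permutation p = 0.543).

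Cp (chromosome 3, 19957054 to 20009145, plus strand) encodes ceruloplasmin, the copper ferroxidase that works beside ferroportin and is made by astrocytes and choroid plexus. It was at 12.6, 13.7, 9.45 and 7.8 CPM in the TCKO libraries, 34.9, 33.3, 38.6 and 13.7 CPM in the T libraries, 8.27, 14.7, 10.3 and 9.74 CPM in the CKO libraries and 11.1, 18.4, 17.1 and 12.1 CPM in the WT libraries. In T, 3 libraries were above all WT libraries and replicate 5 lay within the WT range. Cp was 1.04 ± 0.28 higher in T than in WT on the log2 scale (adjusted p = 0.0131), and the log2 fold change of TCKO over T was -1.47 ± 0.29 (adjusted p = 0.00267). Without the choroid-rich T replicate 4 and WT replicate 1 the rise in T did not pass (0.81, adjusted p = 0.103). Summed astrocyte markers were 3842 to 6831 CPM in TCKO, 9422 to 12623 CPM in T, 3390 to 3722 CPM in CKO and 3732 to 4306 CPM in WT, with 3 of 6 markers higher in T than in WT and 3 of 6 lower in TCKO than in T. Their part in the Cp values was not tested.

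Hmox1 (chromosome 8, 75093621 to 75100589, plus strand) encodes heme oxygenase 1, the inducible enzyme that opens the heme ring and frees its iron. It was at 13.3, 11.9, 9.3 and 10.7 CPM in the TCKO libraries, 37.7, 35.8, 45.8 and 26.5 CPM in the T libraries, 8.64, 7.67, 9.76 and 6.54 CPM in the CKO libraries and 7.01, 10.9, 9.14 and 8.9 CPM in the WT libraries. The T libraries stood clear of all others. The log2 fold change of T over WT was 2.02 ± 0.18, or 4.05-fold (adjusted p = 1.64e-06), and that of TCKO over T was -1.69 ± 0.18, a ratio of 0.31 (adjusted p = 2.77e-05). Both calls held in every alternative run.

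Microglial markers moved with Hmox1, Slc11a1 and Ftl1, and so did astrocyte markers. The astrocyte sums were 9422 to 12623 CPM in T, against 3842 to 6831 CPM in TCKO and 3732 to 4306 CPM in WT. The summed microglial markers were 705 to 1217 CPM in TCKO, 2311 to 3090 CPM in T, 566 to 615 CPM in CKO and 504 to 711 CPM in WT, and 7 of 8 were higher in T than in WT while 6 of 8 were lower in TCKO than in T. Among the TCKO libraries, Slc11a1 and the microglial sum had the same order, replicate 2, 3, 4 and 5 from high to low (1217, 1102, 752 and 705 CPM of markers), and within the T, CKO and WT groups the orders differed. Border macrophage markers summed to 3.86 to 6.98 CPM in TCKO, 14 to 46.1 CPM in T, 3.03 to 7.93 CPM in CKO and 8.68 to 12.2 CPM in WT, with 1 of 7 higher in T than in WT and 3 of 7 lower in TCKO than in T. Neutrophil markers summed to 5.99 to 7.93 CPM in TCKO, 4.65 to 8.31 CPM in T, 3.11 to 9.82 CPM in CKO and 2.82 to 4.9 CPM in WT, and the defining marker Ly6g was at 0 in every library. Of the 4 neutrophil markers tested, 1 was higher and 0 lower in T than in WT, and none passed in TCKO against T. At an unadjusted p under 0.05, 2 were higher in T than in WT and 2 lower in TCKO than in T. Erythrocyte markers, which are hemoglobin genes, summed to 4.4 to 355 CPM in TCKO, 6.06 to 163 CPM in T, 68.3 to 240 CPM in CKO and 44.3 to 249 CPM in WT, and none of the 4 passed in either comparison. Endothelial markers summed to 137 to 164 CPM in TCKO, 178 to 227 CPM in T, 138 to 177 CPM in CKO and 159 to 179 CPM in WT. Of these 6 markers, 2 were higher and 0 lower in T than in WT, and 0 were higher and 2 lower in TCKO than in T. The part of these cell types in the values of the 9 genes was not tested.

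**Figure D4:**
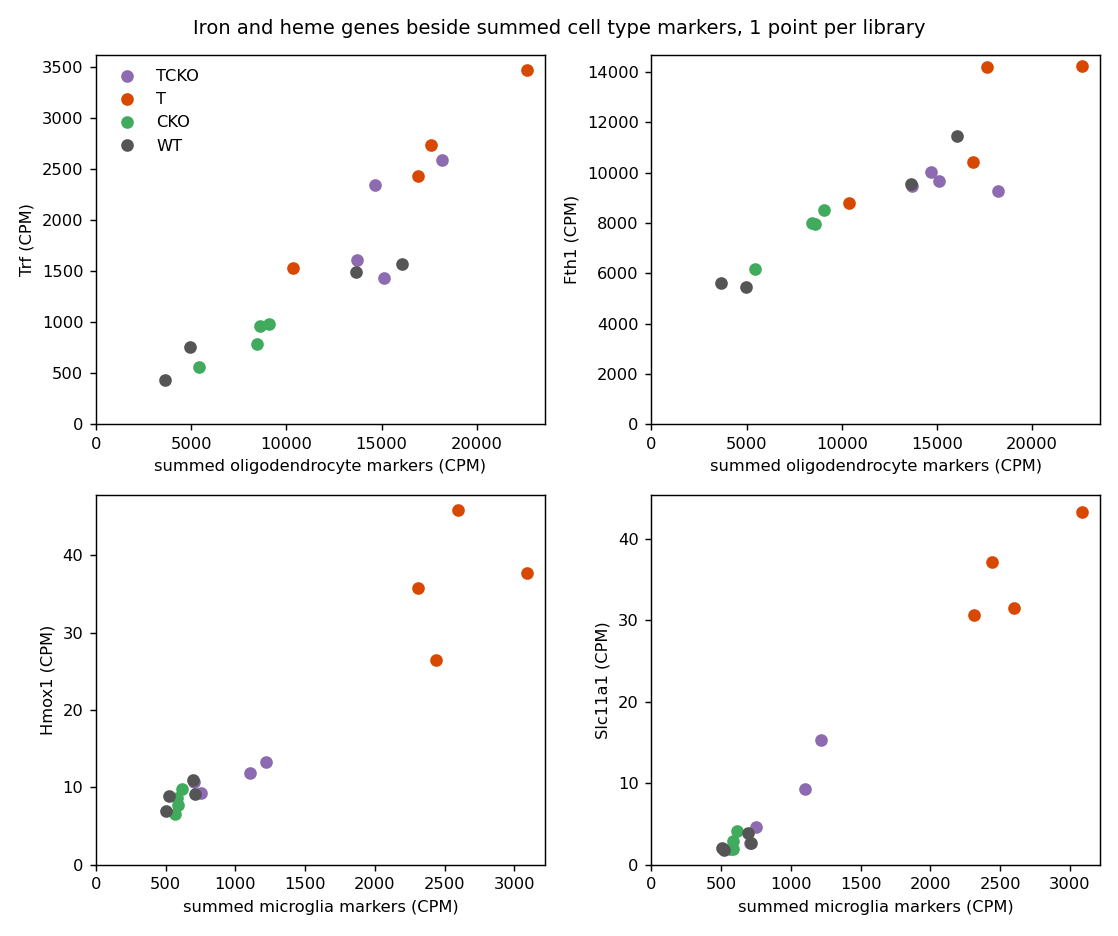
Level of Trf and Fth1 against the summed oligodendrocyte markers (upper panels) and of Hmox1 and Slc11a1 against the summed microglial markers (lower panels), all axes in CPM, with 1 point per library coloured by group (TCKO, T, CKO, WT). The 4 T libraries, with 2311 to 3090 CPM of microglial markers, stand apart in the lower panels, while in the upper panels the CKO libraries lie below the TCKO and T libraries on both axes and the WT libraries split into 2 with low and 2 with high values of both.

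Loss of Ch25h without the transgene gave no call among the 9 genes: in CKO against WT, edgeR's quasi-likelihood test called 0, with 0 also at an unadjusted p under 0.05 and 0 by DESeq2. Over all genes 0.0108% were called. The median log2 fold change of the 9 was -0.22, beside -0.0143 over all genes. Ftl1 was below every WT library in all 4 CKO libraries, with a log2 fold change of -0.22 ± 0.12 (adjusted p = 0.494), and 4.06% of all genes were lower and 4.88% higher without overlap. The remaining log2 fold changes were -0.07 for Fth1, -0.37 ± 0.34 for Trf, -0.25 ± 0.12 for Tfrc, -0.1 ± 0.14 for Slc11a2, 0.03 ± 0.43 for Slc11a1, -0.28 ± 0.19 for Slc40a1, -0.44 ± 0.28 for Cp and -0.15 ± 0.18 for Hmox1.

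The transgene in mice without Ch25h also gave no call among the 9 genes by edgeR, where 0.539% of all genes were called. In TCKO against CKO, 4 of the 9 were higher and 0 lower at an unadjusted p under 0.05, and DESeq2 called 2, Trf (adjusted p = 0.0188) and Slc11a1 (adjusted p = 0.00668). The median log2 fold change of the 9 was 0.33, beside 0.0132 over all genes. Fth1, Ftl1 and Trf were higher in all TCKO libraries than in any CKO library, and 5.32% of all genes were higher and 4.93% lower without overlap. Cell type markers moved beside them: the summed oligodendrocyte markers were 13711 to 18186 CPM in TCKO and 5426 to 9093 CPM in CKO, and all 10 were higher at an unadjusted p under 0.05 (median log2 fold change 1), though none after adjustment. Of the 8 microglial markers, 6 were higher at an unadjusted p under 0.05 and 2 after adjustment, with sums of 705 to 1217 CPM in TCKO and 566 to 615 CPM in CKO. Astrocyte markers summed to 3842 to 6831 CPM in TCKO and 3390 to 3722 CPM in CKO. Of these 6 markers, 4 were higher at an unadjusted p under 0.05 and 1 after adjustment. The part of these markers in the values of the 9 genes was not tested. The log2 fold changes by edgeR were 0.33 ± 0.21 for Fth1 (adjusted p = 0.448), 0.36 ± 0.12 for Ftl1 (adjusted p = 0.138), 1.28 ± 0.35 for Trf (adjusted p = 0.0871), 1.56 ± 0.42 for Slc11a1 (adjusted p = 0.0852) and 0.47 ± 0.18 for Hmox1 (adjusted p = 0.191). Trf also passed when only the libraries compared were fitted (1.27, adjusted p = 0.0222), without a filter on low counts (adjusted p = 0.0383) and without WT replicate 5 (adjusted p = 0.0495). Slc11a1 also passed without that filter (adjusted p = 0.0414) and without TCKO replicate 5 (1.84, adjusted p = 0.0262).

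The transgene effect itself was smaller without Ch25h for 3 of the 9 genes, by the interaction term, which is the difference of TCKO minus CKO less the difference of T minus WT. Over all genes 3.15% passed this test, and 2.45% of all genes passed with a negative sign. Hmox1 had an interaction of -1.54 ± 0.25 on the log2 scale (adjusted p = 0.00474), Ftl1 of -0.82 ± 0.17 (adjusted p = 0.0141) and Slc11a1 of -2.19 ± 0.58 (adjusted p = 0.0498). Cell type markers moved beside them: 6 of 8 microglial, 1 of 6 astrocyte and 1 of 6 endothelial markers also passed with a negative sign. None of the 10 oligodendrocyte markers passed. The part of these cell types in the interaction values was not tested. The Slc11a1 call sat at the threshold and was lost when any 1 of 13 of the 16 libraries was left out (adjusted p between 0.0604 and 0.112 in those fits). Without T replicate 4 and WT replicate 1 together, Ftl1 (-0.72, adjusted p = 0.062) and Slc11a1 (adjusted p = 0.106) did not pass. For Trf the interaction was 0.02 ± 0.48 (adjusted p = 0.989) and for Fth1 -0.24 ± 0.3 (adjusted p = 0.717), which does not show that the effects were alike. For Cp it was -1.02 ± 0.4 (adjusted p = 0.175), and it passed without T replicate 5 (-1.26, adjusted p = 0.0261). For Tfrc it was 0.42 ± 0.17 (adjusted p = 0.198), and it passed without T replicate 4 (0.57, adjusted p = 0.0489).

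Beyond the 9 genes, 54 of 59 other genes of iron, heme and the NRF2 and BACH1 transcription factors were tested. Of these, 15 were higher and 5 lower in T than in WT, and 0 were higher and 13 lower in TCKO than in T. The shares over all genes, against which these counts and those of each list below are to be read, were 13% higher and 11.2% lower in T against WT and 4.81% higher and 8.05% lower in TCKO against T. At an unadjusted p under 0.05, 4 were higher and 21 lower in TCKO than in T. Their median log2 fold changes were 0.17 and -0.13. With the replicate number as a block, T against WT gave 10 higher and 1 lower, and the count fell to 12 without T replicate 2 and to 13 without T replicate 3. CKO against WT called 0 of them, with 1 higher and 3 lower at an unadjusted p under 0.05 and 0 by DESeq2. TCKO against CKO called 0, with 7 higher and 2 lower at an unadjusted p under 0.05 and 3 by DESeq2.

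**Figure D5:**
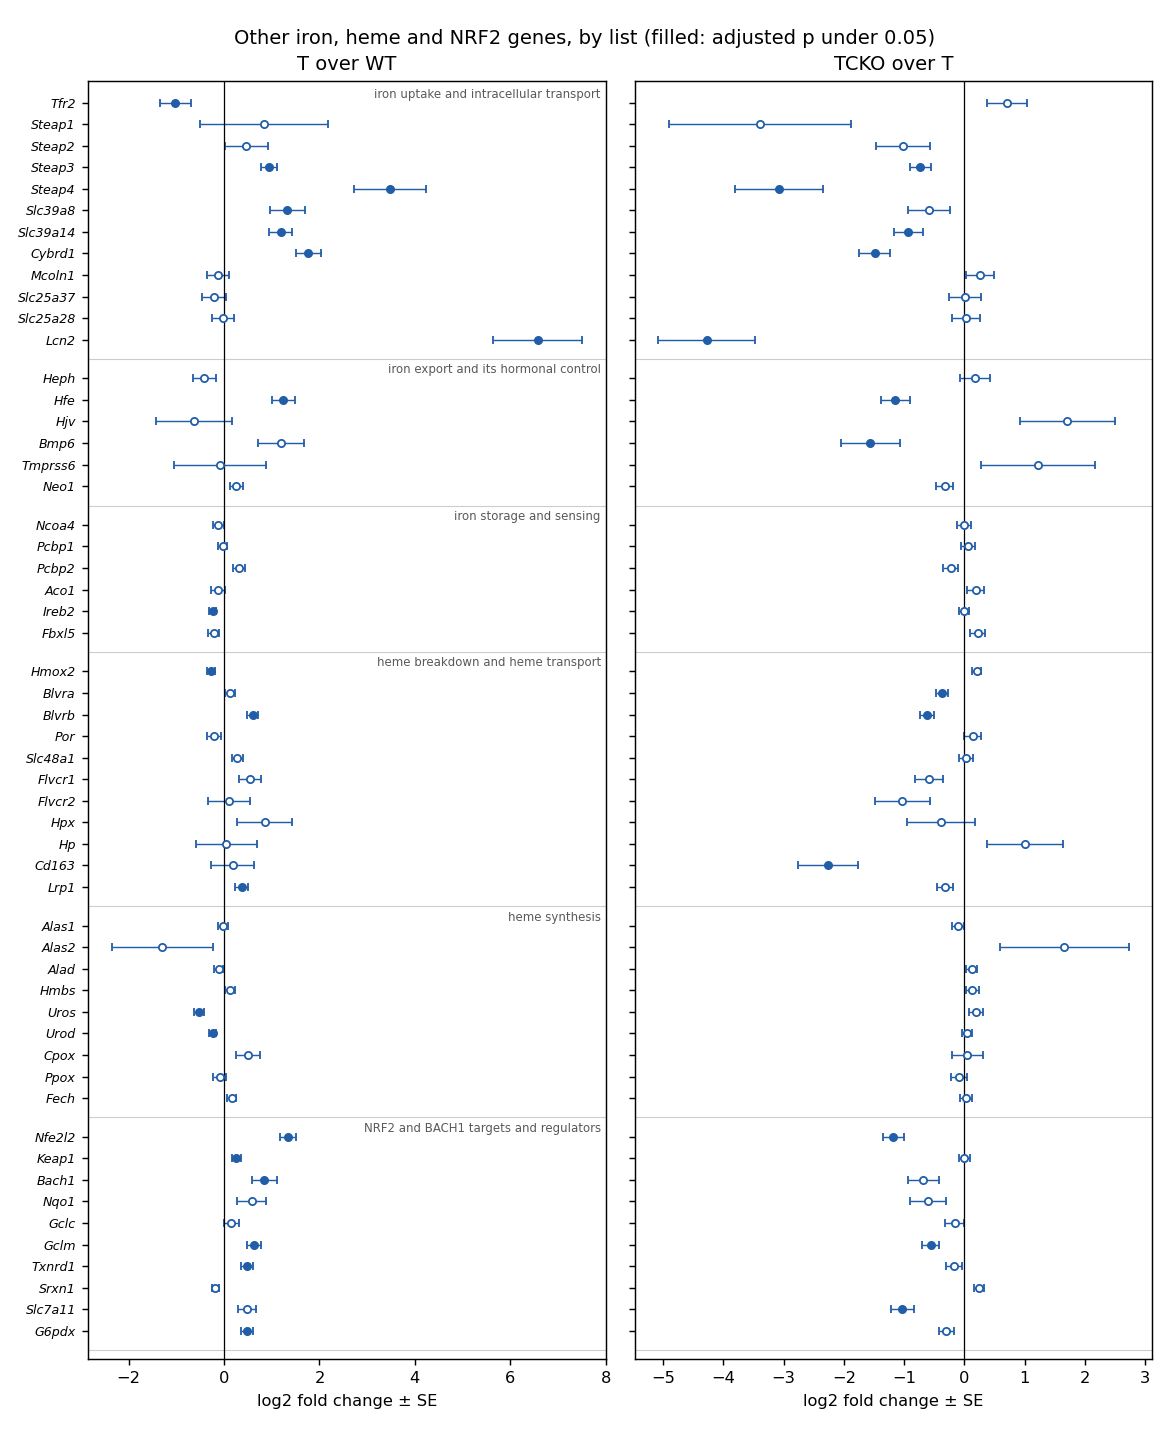
Log2 fold change ± SE (horizontal axes) of the 54 other genes tested, grouped by list, for T over WT on the left and TCKO over T on the right; filled points have an adjusted p under 0.05 by edgeR. On the left 15 filled points lie above 0 and 5 below, and on the right all 13 filled points lie below 0.

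Of 12 genes of iron uptake and intracellular transport, 6 were higher and 1 lower in T, and 5 were lower and none higher in TCKO against T. Lcn2, lipocalin 2, which binds iron-carrying siderophores, averaged 1.01 ± 1.4 CPM in TCKO, 19.1 ± 11 CPM in T, 0.271 ± 0.262 CPM in CKO and 0.194 ± 0.133 CPM in WT (SD, n = 4 each). Its log2 fold change was 6.57 ± 0.94 in T over WT (adjusted p = 9.41e-05) and -4.28 ± 0.8 in TCKO over T (adjusted p = 0.00196). The ferric reductase gene Cybrd1 had a log2 fold change of 1.77 ± 0.26 in T over WT (adjusted p = 0.000145) and -1.49 ± 0.26 in TCKO over T (adjusted p = 0.00113). Steap3, a reductase of transferrin endosomes, had 0.94 ± 0.17 (adjusted p = 0.000778) and -0.73 ± 0.17 (adjusted p = 0.00905) in the same comparisons.

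Among the genes of iron export and its hormonal control, 1 of 6 was higher in T and 2 of 6 were lower in TCKO against T. Hfe, the hemochromatosis protein that binds the transferrin receptor, averaged 11.4 ± 2.68 CPM in TCKO, 25.3 ± 9.4 in T, 6.66 ± 0.985 in CKO and 10.7 ± 2.48 in WT. Its log2 fold change was 1.24 ± 0.24 in T over WT (adjusted p = 0.00139) and -1.15 ± 0.24 in TCKO over T (adjusted p = 0.00442). Bmp6, a ligand that induces hepcidin in liver, was lower in TCKO than in T (-1.56 ± 0.49, adjusted p = 0.0456). That call was lost in 11 of the 16 fits that left out 1 library, with only the libraries compared (adjusted p = 0.0843) and without T replicate 4 and WT replicate 1 together (-1.27, adjusted p = 0.135).

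Of 6 genes of iron storage and sensing, 1 was lower in T and none passed in TCKO against T. Ireb2, which encodes an iron regulatory protein, had a log2 fold change of -0.24 ± 0.08 in T over WT (adjusted p = 0.0422). That call was lost with the replicate block (adjusted p = 0.0821), without T replicate 4 and WT replicate 1 together (adjusted p = 0.154), in 3 other alternatives and in 12 of the 16 fits that left out 1 library. The cargo receptor that delivers ferritin to lysosomes, Ncoa4, averaged 112 CPM in TCKO, 112 CPM in T, 113 CPM in CKO and 122 CPM in WT.

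In heme breakdown and transport, 2 of 11 genes were higher and 1 lower in T, and 3 were lower in TCKO against T. The constitutive heme oxygenase gene Hmox2 averaged 156 ± 10.5 CPM in TCKO, 135 ± 8.12 CPM in T, 158 ± 16.4 CPM in CKO and 164 ± 5.54 CPM in WT. It was lower in T than in WT (-0.27 ± 0.08, adjusted p = 0.0259), opposite in sign to Hmox1, but not with the replicate block (adjusted p = 0.0785), without T replicate 4 and WT replicate 1 together (adjusted p = 0.0911), without a filter on low counts (adjusted p = 0.147) or in 7 of the fits that left out 1 library. Blvrb, a biliverdin reductase, was higher in T than in WT (0.6 ± 0.12, adjusted p = 0.00248) and lower in TCKO than in T (-0.62 ± 0.12, adjusted p = 0.00347). Lrp1, a receptor for heme bound to hemopexin, was higher in T (0.37 ± 0.13, adjusted p = 0.0397), but not with the block (adjusted p = 0.0941), without T replicate 4 and WT replicate 1 together (adjusted p = 0.082) or in 5 of the fits that left out 1 library. Cd163, the haptoglobin-hemoglobin receptor and also one of the border macrophage markers, was lower in TCKO than in T (-2.26 ± 0.5, adjusted p = 0.007), as was Blvra (-0.37 ± 0.1, adjusted p = 0.0212). The Blvra call was lost with only the libraries compared (adjusted p = 0.0759), without T replicate 4 and WT replicate 1 together (adjusted p = 0.0784) and without T replicate 2, T replicate 4, TCKO replicate 2 or TCKO replicate 5 (adjusted p between 0.0501 and 0.0697).

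Of 9 heme synthesis genes none was higher and 2 were lower in T, Uros (-0.52 ± 0.11, adjusted p = 0.00355) and Urod (-0.24 ± 0.08, adjusted p = 0.0405), and none passed in TCKO against T. The Urod call was lost with the block (adjusted p = 0.137), without T replicate 4 and WT replicate 1 together (adjusted p = 0.0954), in 3 other alternatives and in 13 of the fits that left out 1 library. Of 10 NRF2 and BACH1 regulators and targets, 6 were higher in T and 3 lower in TCKO against T, while 4 and 7 did not pass. At an unadjusted p under 0.05, 7 were higher and 1 lower in T, and 1 was higher and 5 lower in TCKO against T. Nfe2l2, which encodes NRF2, an activator of Hmox1 and ferritin genes, averaged 36.1 ± 8.91 CPM in TCKO, 81.8 ± 11.8 CPM in T, 26.3 ± 1.67 CPM in CKO and 32.4 ± 5.93 CPM in WT. Its log2 fold change was 1.34 ± 0.17 in T over WT (adjusted p = 2.57e-05) and -1.18 ± 0.17 in TCKO over T (adjusted p = 0.000186). Gclm, a subunit of the enzyme that begins glutathione synthesis, had 0.63 ± 0.14 in T over WT (adjusted p = 0.00402) and -0.56 ± 0.14 in TCKO over T (adjusted p = 0.0149). The second of these was lost with only the libraries compared (adjusted p = 0.0619), without T replicate 2 (-0.42, adjusted p = 0.0666) and without TCKO replicate 5 (adjusted p = 0.0587). G6pdx was higher in T (0.48 ± 0.13, adjusted p = 0.0114), but not without T replicate 2 (adjusted p = 0.0506) or without T replicate 4 and WT replicate 1 together (0.45, adjusted p = 0.0756), and the cystine transporter gene Slc7a11 was lower in TCKO than in T (-1.03 ± 0.19, adjusted p = 0.00156).

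The NRF2 motif core was not found in the few promoter windows that could be searched. Hmox1, Trf, Slc11a2 and Slc40a1 had no window and were not searched. RefSeq promoter windows (GRCm38.p6, 300 bases, 250 before and 50 after a start) were matched for 5 of the 9 genes, Fth1, Ftl1, Tfrc, Cp and Slc11a1, in 8 windows. TGACNNNGC on either strand was in 0 of the 8, against 12.4% of 32851 windows of the same length, which says only that these letters are not in these windows.

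For the 5 genes called in a comparison, the genes with the most similar pattern were sought among 13139 genes averaging at least 1 CPM. Likeness was measured by the root mean square difference of mean-centred log2 CPM over the 16 libraries. The search left out the iron genes described here, pseudogenes, gene models without a proper name, and ribosomal and mitochondrial genes. Ftl1-ps1, whose group means had the same order as those of Ftl1, was therefore not ranked. Among the genes ranked, nearest to Ftl1 were Sdc4 (0.0898), S100b (0.116) and Mob1a (0.118). Nearest to Trf were Aspa (0.201), Litaf (0.214) and the oligodendrocyte marker Cldn11 (0.217). Nearest to Hmox1 were Abi3 (0.228), Cd37 (0.239) and Zfp36 (0.239). Slc11a1 lay nearest to Cxcl16 (0.318), C4b (0.35) and Igsf6 (0.361), and Cp to Id3 (0.281), Slc7a2 (0.282) and Sdc4 (0.3). These values describe likeness over libraries that share 4 groups.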

How the data were processed

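Per the labels' protocols, the 16 hippocampal libraries were primed with oligo-dT (SMARTer Ultra Low kit). The authors deposited estimated counts per gene (expected counts, not always whole), with TPM and effective lengths per the file headers. Per the submitters' processing notes, bcl2fastq, STAR 2.5.1a, featureCounts 1.4.6-p5 (Subread) and build GRCm38 were used, with no roles given. The quantifier and the annotation behind the counts are not given in the sources used here, so strand use and the split of reads between ferritin genes and their pseudogenes are unknown. Each of 55487 genes was kept once of 55774 lines.

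After rounding, the estimated counts entered edgeR 4.0.16 (R 4.3.3) with TMM scaling, filterByExpr and 1 mean per genotype for all 16 libraries, with quasi-likelihood F-tests and Benjamini-Hochberg adjustment over 18565 genes at a threshold of 0.05. The SE is the log2 fold change divided by the square root of F. CPM are rounded counts per M of the TMM-scaled library total. Ratios used the authors' TPM, which carries no depth, with exact two-sided permutation tests adjusted over 12.

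The genes and lists were chosen with earlier results of these data known. The text names the 9 genes, up to 3 genes of each list by p among those passing in T against WT and in TCKO against T, and the 3 nearest patterns of each gene called. Ncoa4 was added after its values were seen. The lists were not tested as sets. Scara5, Hephl1, Hamp, Hamp2 and Ftmt did not pass the filter. One list symbol was replaced by its current name, Hjv.

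Alternatives were DESeq2 1.42.0, its size factors in edgeR, no filter, a fit of only the libraries compared, leaving out each library in turn, and a block for the replicate number. Leaving out T replicate 4 and WT replicate 1 together was another, and adding pseudogene reads was chosen after seeing the data. Deviations of same-numbered libraries correlated at 0.12, 0.14 and 0.3 for the 3 numbers that T and WT share. Not all pairs exceeded 0.1 in the other comparisons. The labels do not say what a number marks. The edgeR and ratio tests reported above did not pair libraries, except where a block is named. The edgeR step was tested on simulated data. Library totals of 15.06 to 34.35 M reads limit the precision of genes with few reads. Hairpins were searched in GENCODE M21 transcripts, and promoters were taken from RefSeq.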

Additional observations from a re-analysis of the deposited data

Results flagged for a closer look

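The transgene effect differed with Ch25h for Hmox1 (interaction -1.54 ± 0.25 on the log2 scale, adjusted p = 0.00474), Ftl1 (-0.82 ± 0.17, adjusted p = 0.0141) and Slc11a1 (-2.19 ± 0.58, adjusted p = 0.0498) by edgeR's quasi-likelihood test. In each, TCKO minus CKO was smaller than T minus WT, as it was for the 6 of 8 microglial markers that passed. The Slc11a1 call was lost in 13 of the 16 fits that left out 1 library. Without T replicate 4 and WT replicate 1 together, neither Ftl1 (adjusted p = 0.062) nor Slc11a1 (adjusted p = 0.106) passed that test. Slc40a1 in T replicate 5, at 32.1 CPM, stood apart from the other T libraries at 24.7 to 25.5 CPM: its gap was 0.892 of the group's range. It was the only 1 of 48 groups of 4 libraries to stand apart in this way, and chance gives about 1 in 20.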

How the results depend on the processing

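Of 45 results for the 9 genes, 34 had the same call in every alternative, 11 changed their call in at least 1, and no called value changed sign. Genes called in T against WT (4490) numbered 2696 without T replicate 4 and WT replicate 1 and 2934 to 5128 with 1 library left out (fewest without T replicate 2), of the 9 genes 4 to 7; the replicate block gave 3411. In TCKO against T (2388) the counts were 1354 with only the libraries compared, 1591 without those 2 libraries and 1294 to 3278 with 1 left out (1294 without T replicate 2, 1467 without TCKO replicate 5), of the 9 genes always 4. In CKO against WT (2) they were 114 with DESeq2, 1 with only the libraries compared, 0 with the block, 8 without those 2 libraries and 0 to 7 with 1 left out, and none of the 9 genes was called. In TCKO against CKO (100) they were 787 with DESeq2, 252 without a filter, 301 with only the libraries compared, 5 with the block and 11 to 266 with 1 left out; of the 9 genes (0) DESeq2 called 2, no filter 2, only the libraries compared 1 and leave-one-out 0 to 1. In the interaction (584) they were 1263 with DESeq2, 378 without those 2 libraries and 298 to 1266 with 1 left out, of the 9 genes (3) 1 without those 2 libraries and 2 to 4 with 1 left out. The causes were not tested. Of other iron genes, T against WT (20) had 11 with the block, 10 without those 2 libraries and 12 to 24 with 1 left out, and TCKO against T (13) had 8 with only the libraries compared and 9 to 18 with 1 left out; TCKO against CKO (0) had 3 with DESeq2, 1 without a filter, 1 with only the libraries compared and 0 to 1 with 1 left out, and the interaction (1) had 4 with DESeq2, 2 with its size factors, 3 without a filter, 3 with the block, 0 without those 2 libraries and 0 to 6 with 1 left out. The block changed no other call of the 9 genes than Fth1 in T against WT. None of the 12 ratio tests passed after adjustment under any setting. With so few libraries none could have passed in the alternatives, where the other tests kept their main values. This outcome therefore does not show how the ratios depend on the processing. Slc11a1 had the lowest counts, 47 to 1359 reads per library.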
